A study of Homo sapiens with 6 samples.

Results

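The kinases A-Raf and B-Raf, the transcription factor Elk-1 and the phosphatase MKP-1 were represented on a peptide array by 7 peptides, taken as every peptide that the array lists under those 4 names. They are 7 of 300 printed peptides and 7 of the 298 human ones. The peptides are A-Raf at Y301, B-Raf at T598, Elk-1 at S389 and T417, and MKP-1 at S296, S323 and S359, each named by the residue that the array lists. The array measured phosphate transferred to printed peptides by lysates of THP-1, a human leukaemia line of monocytic origin, which had been made macrophage-like with the phorbol ester PMA and rested before stimulation. The groups were cells given 20 ng/ml recombinant IL-32γ for 15 min, cells given 20 ng/ml recombinant IL-17A/F for 15 min, and unstimulated cells, called IL-32, IL-17 and unstimulated here. All 3 groups had been treated with PMA, which is itself an activator of protein kinase C and of this cascade. Each group had 2 arrays, and the replicate number in the labels is taken here as 1 of the 2 independent experiments that the series describes. The labels do not state that arrays of the same number shared a day or a culture, so a difference given for an experiment is one between arrays of the same number. Arrays run without lysate were not used here.

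In the ERK cascade, activated Ras recruits Raf kinases, Raf phosphorylates MEK, and MEK phosphorylates ERK on a threonine and a tyrosine of the activation loop. Active ERK phosphorylates transcription factors such as Elk-1, which drives immediate early genes together with SRF. MKP-1 (DUSP1), itself an immediate early gene product, removes phosphate from p38, JNK and ERK and limits cytokine production in macrophages. The study asked which phosphorylation events each cytokine altered within 15 min. Phosphate on a printed peptide reports kinase activity of the lysate towards that peptide and not the amount or phosphorylation of the protein in the cell. For the same reason the array holds no marker from which the macrophage-like state could be checked.

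Each peptide was printed in 3 spots, so the 7 peptides gave 21 of 900 spots per array. Signal over background stands for depth here. The median ratio of foreground to local background ran from 1.16 to 1.34 over the 6 arrays, and 26.1% to 35.4% of spots were dimmer than their own background. The number of arrays limits the precision. A level below is the background-corrected, quantile-normalized log2 intensity averaged over the 3 spots, so every difference is set against the remaining peptides on its array. A peptide is called above background on an array where its mean foreground exceeded its mean local background. A difference passed where its p-value, adjusted over all 298 peptides (limma, Benjamini-Hochberg), was under 0.05.

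Of the 7 peptides, 5 were above background on all 6 arrays. All 18 spots of A-Raf Y301, B-Raf T598 and Elk-1 T417 were brighter than their local background, and 17 of 18 were for Elk-1 S389 and for MKP-1 S296. The other MKP-1 peptides gave little or no signal. MKP-1 S323 had 0 of 18 spots above background, with a foreground of 0.477 to 0.782 times background. MKP-1 S359 had 2 of 18, both on the IL-32 array of experiment 1, where its foreground was 1.04 times background. MKP-1 S323 therefore has no fold in any comparison, and none is given for S359, which was below background on every IL-17 and unstimulated array. Phosphorylation at S359 is known to stabilise MKP-1, while S296 and S323 are sites at which ERK promotes its degradation.

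**Figure D1:**
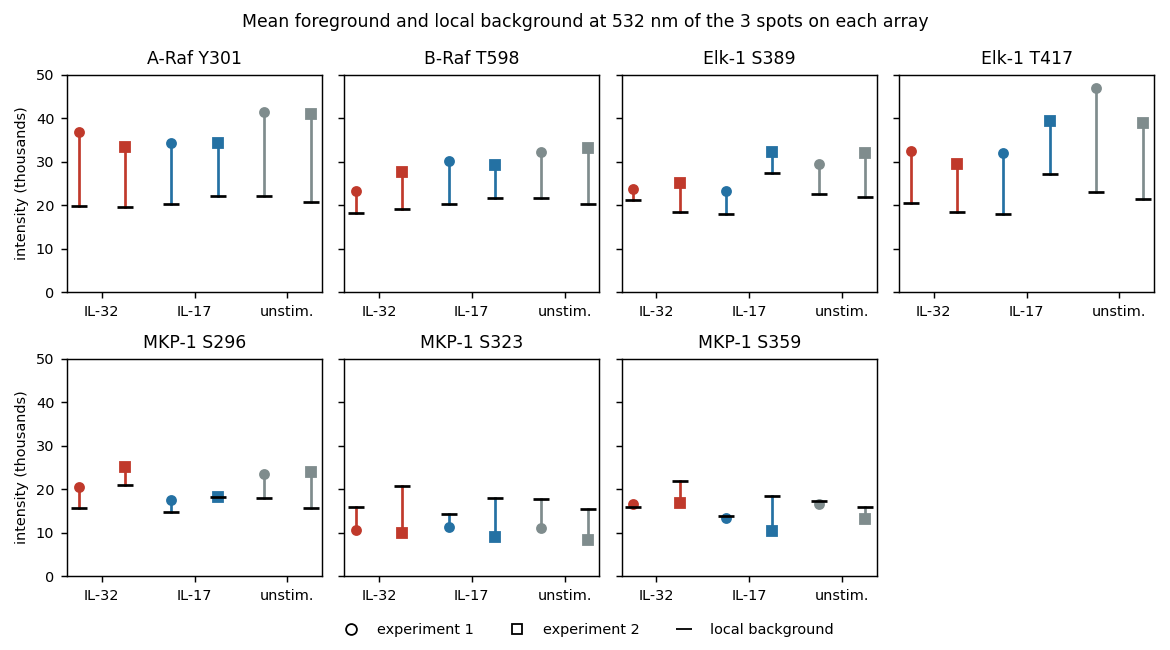
Mean foreground (circle, experiment 1; square, experiment 2) and mean local background (black bar) of the 3 spots of each peptide on each array, as green-channel intensity on a common scale. The foreground of MKP-1 S323 lies under its background on all 6 arrays, and that of MKP-1 S359 exceeds it on 1 array.

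A-Raf is a Raf kinase with tyrosines beside its kinase domain, Y301 among them, that are phosphorylated by Src-family kinases and help to activate it. The A-Raf Y301 peptide had foreground minus background of 16842 and 13849 on the IL-32 arrays, 13970 and 12257 on the IL-17 arrays, and 19309 and 20280 on the unstimulated arrays. After normalization its log2 level was 12.47 and 12.14 with IL-32, 12.41 and 12.28 with IL-17, and 12.28 and 12.40 in unstimulated cells. The 3 groups overlapped, and the 2 IL-32 arrays lay further apart than any of the group means. Against unstimulated cells the log2 difference was -0.03 ± 0.13 (SE of the fit) for IL-32 and 0.01 ± 0.13 for IL-17. Between the cytokines, IL-32 against IL-17, it was -0.04 ± 0.13. For IL-32 the interval of the difference ran from -0.35 to 0.29 (95%), so these arrays could not separate no difference from one of that size in either direction.

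B-Raf is the Raf kinase most active towards MEK, and T598 lies in its activation segment, where phosphorylation accompanies activation by Ras. The B-Raf T598 level was 11.65 and 11.75 with IL-32, 12.00 and 11.90 with IL-17, and 11.76 and 11.92 in unstimulated cells. Both IL-32 arrays lay below the arrays of the other groups, by a gap of under 0.01 to the nearest unstimulated array (11.753 against 11.759). The log2 difference was -0.14 ± 0.09 for IL-32 against unstimulated cells, with -0.11 in experiment 1 and -0.17 in experiment 2, and it was -0.06 without the unstimulated array of experiment 2. All 6 spots on the IL-32 arrays were dimmer than the spot listed at the same place on the unstimulated array of the same number, with log2 differences of -0.21 to -0.02. Spots on an array are not replicates of the condition, so this is a description. With IL-17 the log2 difference was 0.11 ± 0.09, 0.24 in experiment 1 and -0.03 in experiment 2, and the groups overlapped. Between the cytokines B-Raf T598 gave -0.25 ± 0.09 for IL-32 against IL-17 (-0.35 and -0.14), with an interval of -0.48 to -0.02 (95%). The unadjusted p of this difference was 0.038 and the adjusted p 0.997 (limma). On the IL-17 arrays the 3 spots differed by an SD of 0.35 and 0.26, against 0.05 and 0.08 on the IL-32 arrays. With foreground divided by local background the difference between the cytokines was -0.14 ± 0.11, and that from unstimulated cells -0.04 ± 0.11.

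**Figure D2:**
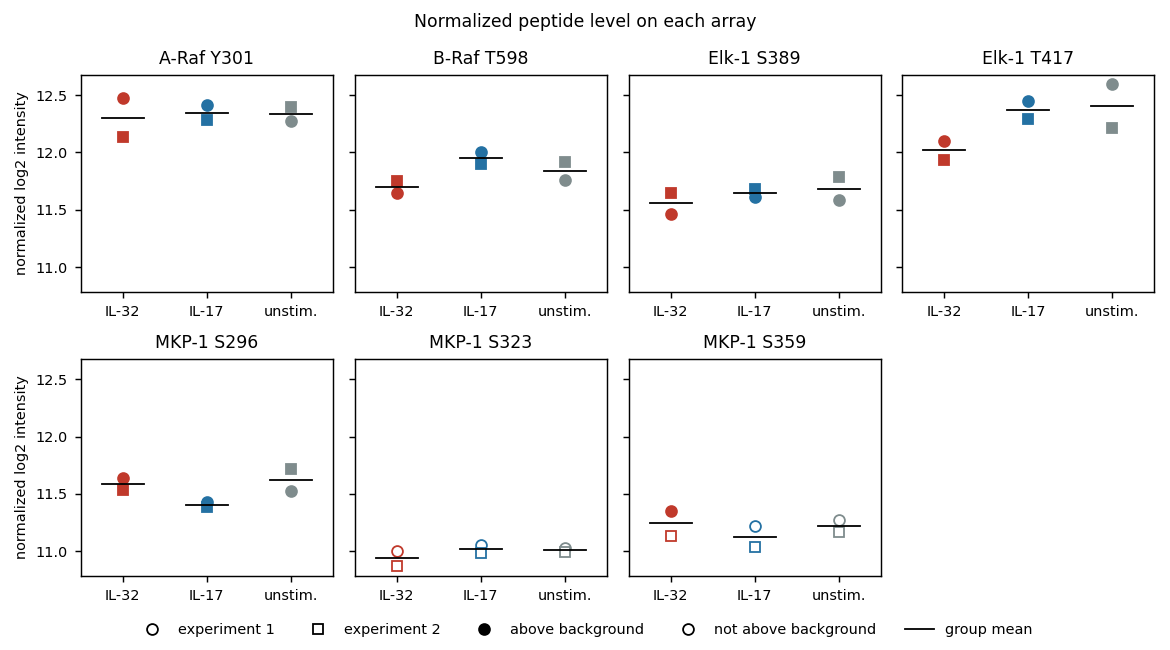
Normalized log2 level of each peptide on each array (circle, experiment 1; square, experiment 2; open symbols, not above background; line, mean of the 2 arrays). Both IL-32 arrays of Elk-1 T417 (12.10 and 11.93) lie below the other 4, and both IL-17 arrays of MKP-1 S296 (11.43 and 11.39) lie below its other 4.

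Elk-1 is a ternary complex factor whose C-terminal transactivation domain is phosphorylated by ERK at several sites, S389 and T417 among them. Elk-1 T417 had a foreground of 32378 and 29359 with IL-32, 31955 and 39348 with IL-17, and 46819 and 38763 in unstimulated cells. Its local background was 20381 and 18314 with IL-32, 18070 and 27240 with IL-17, and 23089 and 21403 in unstimulated cells. The normalized log2 level was 12.10 and 11.93 with IL-32, 12.45 and 12.29 with IL-17, and 12.59 and 12.22 in unstimulated cells. Both IL-32 arrays lay below all 4 others, while the IL-17 and unstimulated arrays overlapped.

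The log2 difference of Elk-1 T417 was -0.39 ± 0.15 for IL-32 against unstimulated cells, with an interval of -0.74 to -0.03 (95%), and the gap was -0.49 in experiment 1 and -0.28 in experiment 2. Its unadjusted p was 0.038 and its adjusted p 0.996 (limma). With foreground divided by background the difference was -0.13 ± 0.12. It was -0.20 without the unstimulated array of experiment 1. For IL-17 the log2 difference was -0.03 ± 0.15, with -0.14 and 0.08 in the 2 experiments and an interval of -0.39 to 0.32. Between IL-32 and IL-17 it was -0.35 ± 0.15 on the normalized scale (-0.35 and -0.36), and -0.01 ± 0.12 with foreground divided by background.

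The 3 spots of Elk-1 T417 disagreed most on the IL-17 arrays. Their normalized log2 levels were 11.75, 12.31 and 13.28 on the IL-17 array of experiment 1, and 13.02, 12.24 and 11.61 on that of experiment 2, so the bright spot stood at opposite ends of the listing. The local background of these spots, in the same order, was 7044, 17410 and 29755 in experiment 1 and 29982, 30353 and 21385 in experiment 2. The SD of the 3 spots was 0.31 and 0.24 with IL-32, 0.78 and 0.71 with IL-17, and 0.06 and 0.51 in unstimulated cells. Set against the spot at the same place, 5 of 6 IL-32 spots were dimmer than in unstimulated cells, and 3 of 6 were dimmer than with IL-17. When the median spot stood for the peptide, the difference of IL-32 from IL-17 was -0.225.

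**Figure D3:**
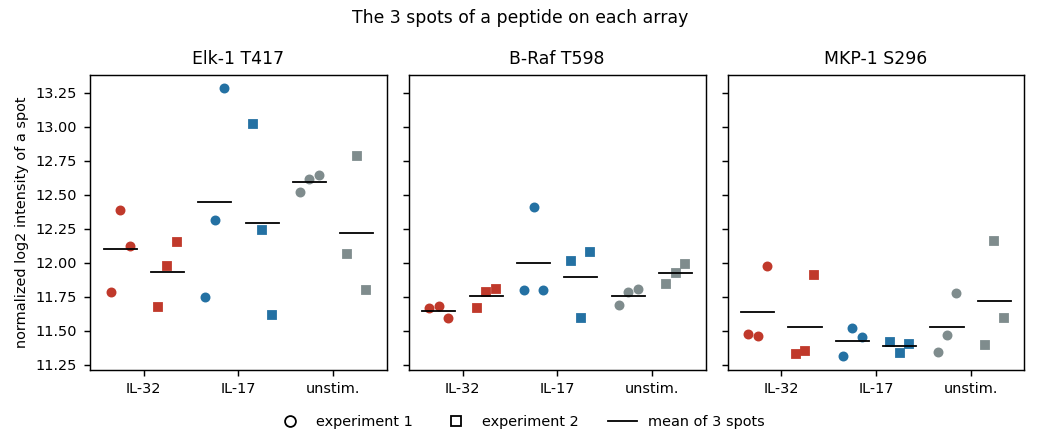
Normalized log2 level of each of the 3 spots of 3 peptides on each array, in the order in which the spots are listed (circle, experiment 1; square, experiment 2; line, mean of the 3 spots). The spots of Elk-1 T417 on the IL-17 arrays span 11.75 to 13.28 and 11.61 to 13.02.

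The second Elk-1 site did not follow the first over the arrays. Elk-1 S389, one of the main ERK sites of the transactivation domain, had a log2 level of 11.47 and 11.65 with IL-32, 11.61 and 11.68 with IL-17, and 11.58 and 11.79 in unstimulated cells, and the 3 groups overlapped. Its log2 difference was -0.13 ± 0.11 with IL-32 (-0.12 and -0.14) and -0.04 ± 0.11 with IL-17, both against unstimulated cells, and -0.09 ± 0.11 between IL-32 and IL-17. The first of these was -0.02 ± 0.12 with foreground divided by background, -2.39 with plain subtraction floored at 1, and -0.03 without the unstimulated array of experiment 2 or without the IL-32 array of experiment 1. On the IL-32 array of experiment 1 this peptide was near its background, at 1.11 times. There 1 of its 3 spots was below background (39465 against 40399), and so at the floor in the plain subtraction. Over the 6 arrays the Pearson correlation between the levels at S389 and T417 was -0.04, a description of arrays that share 1 normalization.

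MKP-1 S296 was the only MKP-1 peptide with a measurable level in all groups. Its foreground minus background was 4859 and 4204 with IL-32, 2788 and 165 with IL-17, and 5521 and 8261 in unstimulated cells. The log2 level was 11.64 and 11.53 with IL-32, 11.43 and 11.39 with IL-17, and 11.53 and 11.72 in unstimulated cells. Both IL-17 arrays lay below the other 4, and the IL-32 and unstimulated arrays overlapped. On the IL-17 array of experiment 2 the peptide was at 1.01 times background, with 2 of 3 spots above it.

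The log2 difference of MKP-1 S296 was -0.22 ± 0.09 for IL-17 against unstimulated cells (-0.10 and -0.33), with an interval of -0.45 to 0.01 (95%). Its unadjusted p, 0.060, was the smallest of the 298 peptides in that comparison, and the adjusted p was 0.997 (limma). The difference was -0.19 ± 0.11 with foreground divided by background and -0.10 with the median of the spots, and on the normalized scale -0.12 without the unstimulated array of experiment 2. Plain subtraction of the background, floored at 1, gave -3.09, with 1 of the 3 spots on the IL-17 array of experiment 2 at that floor. For IL-32 the log2 difference was -0.04 ± 0.09 (0.11 and -0.19). Between IL-32 and IL-17 it was 0.18 ± 0.09 (0.21 and 0.14), and -0.01 with the median of the spots. The MKP-1 S359 foreground was 1.04 and 0.773 times background with IL-32, 0.971 and 0.57 times with IL-17, and 0.958 and 0.837 times in unstimulated cells. It was lower in experiment 2 in each group.

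**Figure D4:**
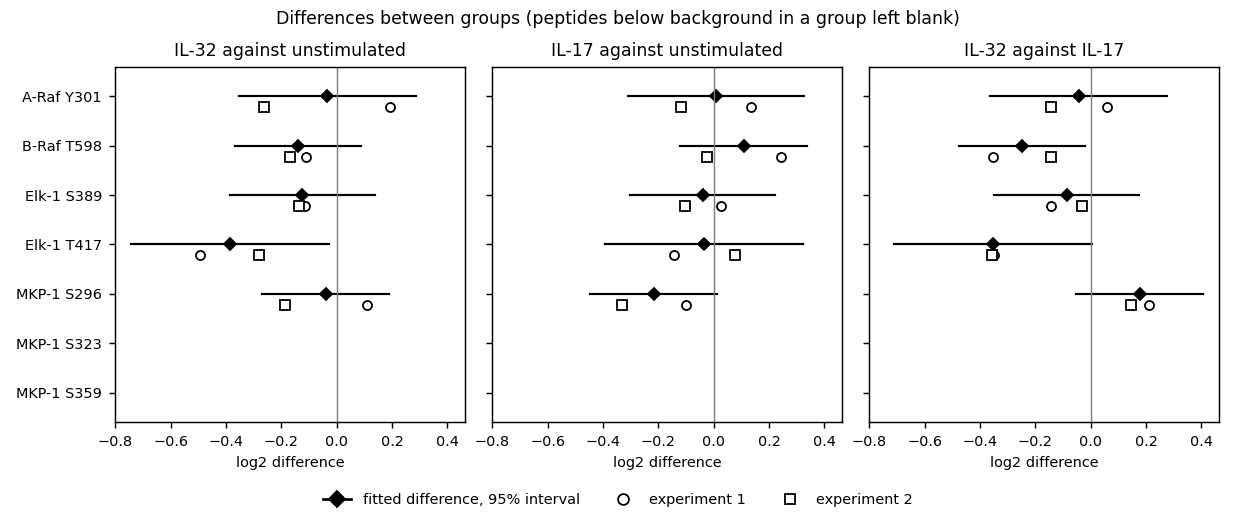
Fitted log2 difference with its 95% interval (diamond and line) and the difference within each experiment (circle, experiment 1; square, experiment 2) for the 5 peptides with a fold in each comparison. The interval leaves out 0 for Elk-1 T417 with IL-32 against unstimulated cells (-0.74 to -0.03) and for B-Raf T598 with IL-32 against IL-17 (-0.48 to -0.02). Intervals are not adjusted for the number of peptides, and the adjusted p of these differences was 0.996 and 0.997 (limma).

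For IL-32 against unstimulated cells, 0 of the 7 peptides passed, as did 0 of all 298 (0%; limma). At an unadjusted p under 0.05, 1 of 7 was found, Elk-1 T417, against 4 of 298 (1.34%). If no peptide differed, about 5% would be found at that p. The arrays of the groups did not overlap, with IL-32 lower, for 2 of 7 peptides (Elk-1 T417 and B-Raf T598), against 11.7% of all peptides, and with IL-32 higher for 0 of 7, against 12.8%. Counted by sign alone, 1 of 7 was higher, against 48.7% of all peptides, and 6 of 7 lower, against 51.3%. The higher one was MKP-1 S359 and the lower ones included MKP-1 S323, neither of which has a fold. All 5 peptides with a fold were lower (median log2 difference -0.13), and of the 213 peptides of the array with a fold 51.6% were lower (median -0.0048). Among the 5, A-Raf Y301 (-0.03) and MKP-1 S296 (-0.04) were higher in experiment 1 and lower in experiment 2. B-Raf T598 and both Elk-1 peptides were lower in both experiments. At the size and p that the study states, over 1.5-fold and p under 0.06, 0 of 7 and 0 of 298 qualified on the normalized scale. On that scale, which compresses differences, the log2 differences of all 298 peptides ran only from -0.583 to 0.75.

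For IL-17 against unstimulated cells, 0 of 7 and 0 of 298 peptides passed (0%; limma), and at an unadjusted p under 0.05 there were also 0 of 7 and 0 of 298. The groups did not overlap for MKP-1 S296, 1 of 7 with IL-17 lower, against 9.06% of all peptides, and for 0 of 7 with IL-17 higher, against 8.05%. By sign, 3 of 7 were higher, against 52.7%, and 4 of 7 lower, against 47.3%. Without MKP-1 S323 and S359, which were below background, 2 of 5 were higher and 3 of 5 lower. Of the 214 peptides of the array with a fold, 50.5% were higher and 49.5% lower. The median log2 difference was -0.03 for the 5 and 0.00068 for the 214. For IL-32 against IL-17, 0 of 7 and 0 of 298 passed (0%; limma), and 1 of 7, B-Raf T598, had an unadjusted p under 0.05, at 0.038, against 4 of 298 (1.34%). There the groups did not overlap with IL-32 lower for 2 of 7, B-Raf T598 and Elk-1 T417, against 9.40%, and with IL-32 higher for 1 of 7, MKP-1 S296, against 12.8%. By sign, 2 of 7 were higher, against 49.3%, and 5 of 7 lower, against 50.7%. Without MKP-1 S359, counted as higher, and S323, counted as lower, 1 of 5 was higher and 4 of 5 lower. Of the 212 peptides with a fold there, 48.1% were higher and 51.9% lower (median log2 difference -0.0035, against -0.09 for the 5). The 3 comparisons share arrays and are not independent of each other. With 2 arrays a group, the smallest p that an exact two-sided permutation test can give is 0.333.

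The median of all 298 peptides shifted without normalization, and some directions with it. Without normalization between arrays the median log2 difference was -0.24 for IL-32 and -0.59 for IL-17 against unstimulated cells, and 0.36 for IL-32 against IL-17. Relative to those medians Elk-1 T417 was at -0.33 for IL-32 against unstimulated cells and -0.18 for IL-32 against IL-17, and B-Raf T598 was at -0.18 and -0.21. MKP-1 S296 was at -0.21 for IL-17 against unstimulated cells. In that setting all 7 peptides passed with IL-17 lower than unstimulated, and 293 of all 298 peptides passed.

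**Figure D5:**
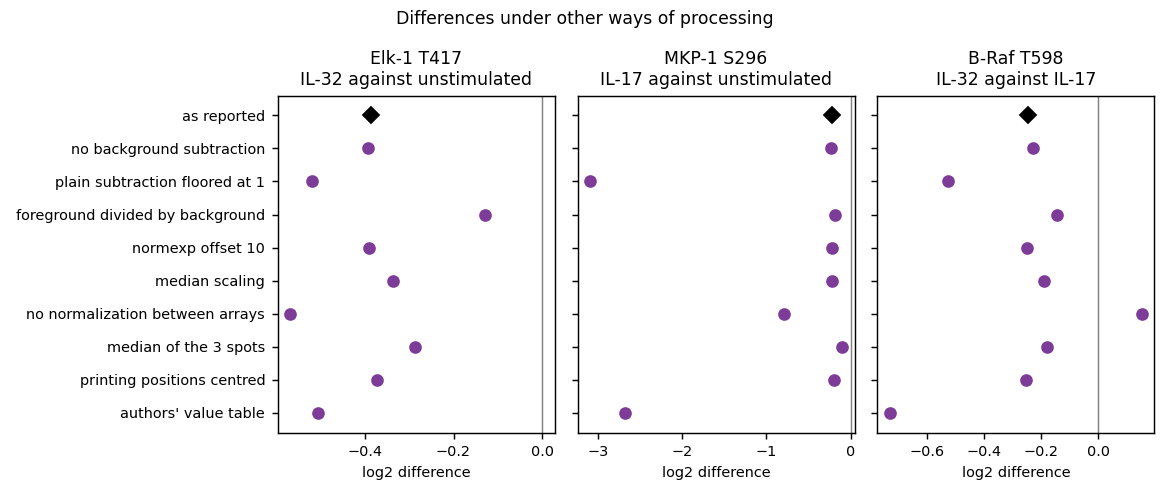
Log2 difference of 3 peptides under each way of processing (diamond, as reported; circles, alternatives); each panel has its own axis. Elk-1 T417 keeps its sign for IL-32 against unstimulated cells, from -0.57 to -0.13, and B-Raf T598 turns positive (0.15) for IL-32 against IL-17 without normalization between arrays.

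The authors' deposited table holds the mean of foreground minus background, scaled by 1 constant per array and floored at 0.01, without compression of low signals. In the authors' deposited table Elk-1 T417 was 1.2 and 0.935 with IL-32, 1.48 and 1.49 with IL-17, and 1.66 and 1.36 in unstimulated cells, which for IL-32 over unstimulated is 0.72 in experiment 1 and 0.689 in experiment 2. B-Raf T598 in the authors' deposited table was 0.49 and 0.709 with IL-32, 1.04 and 0.915 with IL-17, and 0.736 and 1.01 in unstimulated cells, or 0.666 and 0.705 times unstimulated for IL-32. Elk-1 S389 in the authors' deposited table was 0.234 and 0.566 with IL-32, 0.563 and 0.566 with IL-17, and 0.477 and 0.791 in unstimulated cells. Here the IL-32 array of experiment 1 was the low one. MKP-1 S296 in the authors' deposited table was 0.484 and 0.356 with IL-32, 0.298 and 0.0203 with IL-17, and 0.386 and 0.646 in unstimulated cells. The authors' deposited table gives MKP-1 S323 at the floor on all 6 arrays and S359 on 5 of them. In limma's test on log2 values of the authors' deposited table, 0 of the 7 peptides passed in any comparison.

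The ERK arm list held 15 peptides from 12 proteins, of which 8 were not among the 7 above, and 9 of the 15 had all 18 spots above background. For IL-32, 0 of 8 passed in either direction (limma). Of the 8, 7 lay above unstimulated cells, against 48.7% of all peptides, and 1, Fos T232, which has no fold there, below. The median log2 difference was 0.06, against -0.002 over all peptides. For IL-17, 0 of 8 passed, with 6 above and 2 below, where 52.7% of all peptides were above, and a median of 0.02, against 0.003. For IL-32 against IL-17, 0 of 8 passed, with 5 above and 3 below, where 49.3% of all peptides were above. The median was 0.03, against -0.002. ERK1 at T202/4, in its activation loop, gave 0.10 ± 0.09 for IL-32 and 0.10 ± 0.09 for IL-17, and both were below 0 with foreground divided by background (-0.06 and -0.07) or without normalization, as was IL-32 with the median spot and IL-17 with median scaling. MEK1 S217, in the activation loop of the kinase above ERK, gave 0.13 ± 0.12 with IL-17 over unstimulated cells (0.28 and -0.03). For IL-32 against IL-17 it gave -0.09 ± 0.12 (-0.19 and -0.00095), and both differences turned sign in the authors' deposited table. This peptide was near background, with 12 of 18 spots above it and a foreground of 0.979 to 1.30 times background. Its mean foreground exceeded background on 5 of 6 arrays, and on the remaining array it lies at the floor in the deposited table. Plain subtraction floored at 1 for each spot kept both signs (1.82 for IL-17 and -0.987 between the cytokines). H-Ras-1 T35, from the GTPase that recruits Raf, gave 0.13 ± 0.21 for IL-32 against IL-17, with 0.48 and -0.21 in the 2 experiments. Cot S400, from a MAP kinase kinase kinase that activates MEK in macrophages, gave 0.16 ± 0.24 for IL-32, with -0.36 and 0.68. Shc1 Y349/0, from an adaptor upstream of Ras, gave 0.10 ± 0.12 for IL-17, with 0.06 and 0.15. Fos T232, in the product of an Elk-1 target gene, did not exceed its background on either IL-32 array and is given no fold for IL-32.

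The p38 and JNK arms, whose kinases MKP-1 also dephosphorylates, held 24 peptides from 14 proteins, of which 12 had all 18 spots above background and 7 none. With IL-32, 0 of 24 passed (0% of all peptides did), and 7 lay above and 17 below unstimulated cells, where 51.3% of all peptides were lower (median log2 difference -0.02). With IL-17, 0 of 24 passed (0% of all), and 13 lay above and 11 below, against 47.3% lower over all (median 0.02). In the direct comparison of the cytokines, 0 of 24 passed (0% of all), with 7 above and 17 below, against 50.7% lower over all (median -0.01). Only some of these peptides had a fold: 4 higher and 11 lower of 15 with IL-32, 7 and 7 of 14 with IL-17, and 4 and 10 of 14 between the cytokines. Over all peptides of the array with a fold, 51.6%, 49.5% and 51.9% were lower, in the same order. Of the peptides picked by the smallest p, HSP27 S78/82/3, on a chaperone phosphorylated downstream of p38, gave 0.75 ± 0.55 for IL-32, with -0.01 in experiment 1 and 1.51 in experiment 2. The HSP27 peptide exceeded its background on 2 of 6 arrays, 1 with IL-32 and 1 unstimulated, so the size of this difference is poorly measured. JNK1 without a listed residue (spot label 165) gave -0.15 ± 0.10 for IL-32, with 0.04 and -0.33 in the 2 experiments. ASK1 S83, from a kinase above JNK and p38, gave -0.33 ± 0.21 for IL-17, with 0.03 and -0.69. SEK1 S80, from a JNK kinase, gave 0.12 ± 0.10 with IL-17 over unstimulated cells (0.02 and 0.22) and -0.15 ± 0.10 for IL-32 against IL-17 (0.01 and -0.32). Without the IL-17 array of experiment 2 these were 0.01 and -0.04. SEK1 S80 was near background, with 11 of 18 spots above it and a foreground of 0.922 to 1.11 times background. For p38-alpha Y323 the difference was -0.08 ± 0.08 with IL-17 (-0.18 and 0.01). Jun S63 and JNK1 S377 were below background on all arrays.

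Across the 6 arrays each measurable peptide was set against the 182 peptides outside the 7 that were also above background on all arrays. The profile most like Elk-1 T417 was that of p53 S215 (Pearson r = 0.93), and the one most like B-Raf T598 that of CCR2 Y139 (0.94). A-Raf Y301 was closest to DAPK3 T225 (0.95), Elk-1 S389 to PKACa T195/7 (0.99) and MKP-1 S296 to FGFR3 Y724 (0.86). These are the highest of 182 values over 6 arrays that share 1 normalization and, in part, local background. Among the 5 peptides themselves the correlation ran from -0.36, between B-Raf T598 and MKP-1 S296, to 0.65, between B-Raf T598 and Elk-1 S389.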

How the data were processed

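Per the labels' protocols, lysates of THP-1 cells were applied to peptide arrays that were stained with a fluorescent phosphoprotein dye. The deposited array files hold intensities per the file headers, a mean foreground and a mean local background for each of 900 spots, not yet subtracted or normalized. The sources used here name neither scanner nor image software. The authors' deposited value table is a ratio: foreground minus background, averaged over 3 spots, divided by 1 constant per array, with a floor of 0.01, as a comparison with the array files showed.

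Intensities were corrected by normexp (limma, offset 50) and log2-transformed, 2 non-human peptides were left out, spots were quantile-normalized, and each peptide was given the average of its 3 spots. The normexp method compresses differences of dim spots, and sizes also differed for peptides with all 18 spots above background. B-Raf T598 was at -0.14 for IL-32 against unstimulated cells, and at -0.389 with plain subtraction floored at 1. Between the cytokines these were -0.247 and -0.526 for B-Raf T598, and -0.353 and -0.305 for Elk-1 T417. All 298 peptides were fitted over 6 arrays without a block (limma 3.58.1, R 4.3.3; 3 residual and 2.82 prior degrees of freedom), with two-sided tests and Benjamini-Hochberg adjustment. The code was first run on simulated data. The simulated log2 values had the same SD for every peptide, and the run did not require a doubled spot signal to be fitted at full size. The series describes the replicates as independent experiments. A peptide below background on every array of a group has no fold.

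The text names all peptides of the 4 proteins, the most similar profile of each measurable one, and the 3 other peptides with the smallest p per pathway list and comparison. The members and lists were chosen with earlier results of these data known. The lists were matched to array names by hand. Peptide sequences were not used here, and some peptides that were kept in the fit are not reported here.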

Additional observations from a re-analysis of the deposited data

How the results depend on the processing

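No peptide of the 7 passed under any alternative other than no normalization between arrays, where all 7 passed for IL-17 against unstimulated cells (limma, with 293 of 298 peptides). In that setting and comparison 5 of 7 met the study's fold and p, as did 153 of all 298. At those criteria 1 of 7 qualified for IL-32 against IL-17 without background subtraction (MKP-1 S359, below background on most arrays), and 8 of all 298. The sign of 5 of 15 log2 differences with a fold held in all settings that keep all arrays, and of 8 in all of these other than no normalization. The cause of the sign changes was not tested. Without normalization the log2 difference for IL-17 against unstimulated cells was -0.745 for A-Raf Y301, -0.57 for B-Raf T598, -0.597 for ERK1 T202/4, -0.563 for Shc1 Y349/0, -0.439 for MEK1 S217 and -0.449 for SEK1 S80. For IL-32 against IL-17 it was 0.544 for A-Raf Y301, 0.153 for B-Raf T598, 0.275 for Elk-1 S389, 0.183 for Elk-1 T417, 0.255 for MEK1 S217 and 0.187 for SEK1 S80, and for IL-32 against unstimulated cells -0.114 for ERK1 T202/4 and -0.0739 for Cot S400. With foreground divided by background, A-Raf Y301 was at 0.0295 for IL-32 and 0.00823 for IL-32 against IL-17, and Elk-1 S389 at 0.00868 for IL-17. ERK1 T202/4 was then at -0.0597 for IL-32 and -0.0729 for IL-17, and JNK1 (label 165) at 0.0142 and Cot S400 at -0.259 for IL-32. Without background subtraction A-Raf Y301 was at -0.151, B-Raf T598 at -0.0169 and Elk-1 S389 at 0.0318 for IL-17, and MKP-1 S296 at 0.188 for IL-32. Median scaling gave A-Raf Y301 0.0306 for IL-32, -0.171 for IL-17 and 0.202 between them, and ERK1 T202/4 -0.0228 for IL-17. The median spot gave A-Raf Y301 0.0166, ERK1 T202/4 -0.0672 and Cot S400 -0.12 for IL-32, and MKP-1 S296 -0.0147 between the cytokines. Centring the printing positions gave A-Raf Y301 -0.0148 for IL-17. The authors' deposited table, where MEK1 S217 is at the floor on an array, gave it -0.782 for IL-17 and 0.901 between the cytokines.

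With 1 array left out at a time, A-Raf Y301 ran from -0.185 to 0.14 for IL-32, -0.0563 to 0.0713 for IL-17 and -0.189 to 0.13 between them. Elk-1 S389 ran from -0.227 to -0.0256 for IL-32, -0.14 to 0.0602 for IL-17 and -0.18 to 0.00673 between the cytokines, Elk-1 T417 from -0.229 to 0.165 for IL-17, and MKP-1 S296 from -0.134 to 0.053 for IL-32. H-Ras-1 T35 ran from -0.183 to 0.484 between the cytokines, HSP27 S78/82/3 from -0.155 to 1.58 and Cot S400 from -0.129 to 0.461 for IL-32, and MEK1 S217 from -0.0256 to 0.286 for IL-17 and -0.254 to 0.0572 between the cytokines. JNK1 (label 165) ran from -0.233 to -0.0344 for IL-32, and ASK1 S83 from -0.569 to -0.105 and p38-alpha Y323 from -0.16 to -0.0179 for IL-17. A group left with 1 array was assumed to vary like the others.

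With the replicate number as a block (replicate block), 0 of 7 and 0 of 298 peptides passed in each comparison (limma). At an unadjusted p under 0.05 all peptides then gave 8, 4 and 10 calls for IL-32, IL-17 and IL-32 against IL-17, against 4, 0 and 4 without the block. Of the 7 peptides 1, 0 and 2 were among the calls with the block. Elk-1 T417 had an unadjusted p of 0.0064 with IL-32 over unstimulated cells and 0.0096 between the cytokines (limma). The adjusted p of these differences was 0.997 and 0.994 (limma). B-Raf T598 had an unadjusted p of 0.044 and an adjusted p of 0.994 between the cytokines (limma). Deviations of same-numbered arrays from their group means correlated at 0.39 between IL-32 and IL-17 and 0.02 between IL-32 and unstimulated cells. Between IL-17 and unstimulated cells the value was 0.18. Levels on the IL-32 array of experiment 1 correlated at 0.94 with the IL-17 and unstimulated arrays of its number, and at 0.87 with the other IL-32 array. For the IL-32 array of experiment 2 these were 0.92, 0.87 and 0.87. Median background at the 3 listed spot places was 6978, 13397.5 and 27500 on the first IL-32 array, and 18079, 22764 and 20457.5 on the second. The labels state no block, so the tests do not use the number as one, and the differences given by experiment are descriptions that assume it. Of 42 values of 7 peptides on 6 arrays, 31 were above background in the mean and 28 in all 3 spots, and signal over background limits the dim MKP-1 peptides.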
